A study of Mus musculus with 4 samples.

Results

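On chromosomes 1 to 19, 512 regions carried a PU.1 peak in B cells of the PU.1 knock-in mouse and no peak in wild-type or miR-155 knockout cells. Peaks of the 3 deposited lists were joined into a region where they overlapped by at least 1 bp, which gave 4676 regions. The 512 were chosen by the peak calls: a knock-in peak and no wild-type or knockout peak. They made up 10.9% of all regions (exact 95% interval 10.1 to 11.9). Of the 2062 regions with a knock-in peak, 24.8% were called in the knock-in alone, which is the share the choice itself fixes and is read as nothing more. Each of the 512 held 1 peak. Scores and widths come from the same peak calls, so they are given as a description, with no test. A region missing from a list is one where no peak was called there, and the lists hold no read counts that would separate an unbound site from one below the calling threshold.

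PU.1, the product of Spi1, is a transcription factor of the ETS family that binds purine-rich DNA at promoters and enhancers. It is known for setting the myeloid and early lymphoid gene programmes, and its level in B cells falls as they become antibody-secreting plasma cells. MicroRNA miR-155 is induced in activated B cells and pairs through its seed, bases 2 to 8, with a site in the Spi1 messenger RNA, which lowers PU.1. Its mature sequence in RefSeq (mouse GRCm38.p6) is shown because this is the microRNA whose site is altered in the knock-in and which the knockout lacks. Capitals mark the seed.
mmu-miR-155-5p: uUAAUGCUaauugugauaggggu

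The knock-in mice carry the genotype written PU.1[155-/155-], in which the microRNA is intact and the site it pairs with in Spi1 is changed. The knockout mice, miR-155[-/-], lack the microRNA and keep the site, and the wild-type mice have both. All 3 groups were splenic B cells, isolated by negative selection and stimulated ex vivo for 4 days with LPS at 5 ug/ml and IL-4 at 10 ng/ml, and fixed with 2% formaldehyde before PU.1 was immunoprecipitated. The labels call each library a mix and do not say what was mixed, and they give neither strain nor age. With 1 library per genotype, every difference below is between single libraries, has no replicate check and carries no p-value. Peak lists hold no expression values, so the B cell label could not be checked against markers. The autosomal lists held 1114 wild-type, 2063 knock-in and 4094 knockout peaks, and read depth is unknown. Exact 95% intervals given below cover counting error over regions only.

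Most knock-in-only regions, but not all, were in the lower-scoring 50% of the knock-in list. Their median score, as the authors deposited it, was 57.9, with an interquartile range of 53.0 to 65.9, a lowest value of 50.1 and a highest of 141. Ranked within the autosomal knock-in list, the median member stood at percentile 21.0 (exact 95% interval of the median 18.4 to 23.6). Knock-in peaks shared with the knockout alone had a median percentile of 45.3 (43.0 to 47.9), and those called in all 3 genotypes one of 74.2 (71.2 to 77.2). The lower-scoring 50% of the list held 440 of the 512 members (85.9%, 82.6 to 88.8), and the higher-scoring 50% held the remaining 72.

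**Figure D1:**
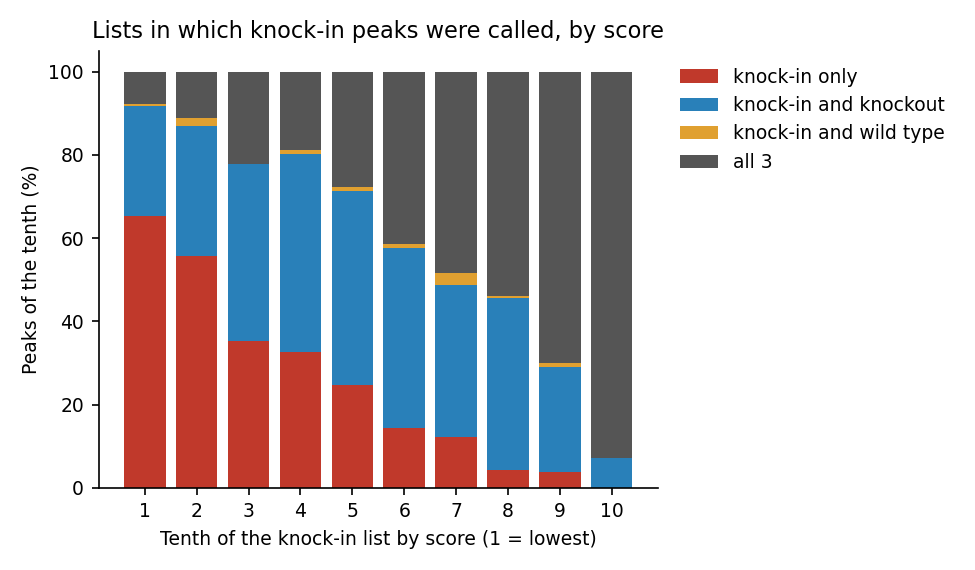
Bars show, for each 10% of the 2063 autosomal knock-in peaks ordered by score from lowest (1) to highest (10), the percentage of peaks by the lists that also called the region. Regions called in the knock-in alone fall from 65.2% of the lowest class to 0% of the highest.

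Members became rarer along the ranking. In the lowest-scoring 10% of the list, 133 of 204 peaks were members (65.2%, 58.2 to 71.7). In the next 10% there were 116 of 208 (55.8%, 48.7 to 62.6), and in the fifth class 51 of 206 (24.8%, 19.02 to 31.2). In the ninth class, 8 of 207 peaks were members (3.86%, 1.68 to 7.47). The highest-scoring 10% contained 0 members among 206 peaks (0%, 0 to 1.77). The corresponding class of the knockout list held 12 knockout-only regions among 410 peaks (2.93%, 1.52 to 5.06). Within the knockout list, knockout-only peaks lay at a median percentile of 33.5 (32.1 to 34.9). They made up 2332 of its 4094 peaks, whereas members made up 512 of 2063 knock-in peaks. A class filling that much of a list cannot have a median percentile as low as the members' 21.0. Neither the medians nor the highest-class shares of members and knockout-only peaks can therefore be compared. Wild-type-only peaks, 50 of 1114 in their list, lay at 20.6 (14.5 to 28.6). Percentiles of lists of unequal length show a place within each list and no change in binding.

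Deposited scores repeated across peaks. The 512 members took 324 distinct scores, and 365 of them (71.3%, 67.2 to 75.2) had a score that another autosomal knock-in peak also had. This share was 58.5% (54.8 to 62.1) for peaks shared with the knockout alone and 44.0% for those of all 3 genotypes. For scores held by 5 or more knock-in peaks, these shares were 25.2%, 32.3% and 22.3%, so the order changed. Most members lay at low scores, which are crowded. The lowest-scoring class held 204 peaks from 50.08 to 53.1, and the fifth class 206 from 66.88 to 72.86. Peaks were not matched for score, so these shares do not show repeated scores to be particular to members. The commonest value was 59.49, held by 17 members and by 72 knock-in, 36 wild-type and 68 knockout peaks. The value 60.68 was held by 8 members and 20 knock-in peaks, with 0 in the wild-type and 2 in the knockout list, and all 8 of those members were 219 to 243 bp wide. The value 74.23 was held by 7 members, 26 knock-in, 0 wild-type and 2 knockout peaks, and its members were 198 to 238 bp wide. Some repeated scores were thus found in all 3 lists and others almost wholly in the knock-in list. Tied peaks share a rank, so an order among them carries no information.

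The 10 members with the highest scores ranged from 100 to 141 and stood at or above percentile 75.5 of the knock-in list. The highest was chr3:86010550-86010927, 378 bp wide, with a score of 141 at percentile 89.3. Its nearest peak in another list was a knockout-only peak 471 kb away. The next, chr17:27179669-27179944, scored 131 and was 276 bp wide, and a knockout-only peak lay 289 kb away. A pair of regions, chr17:14963846-14964049 and chr14:56504856-56505044, had the same score of 126. The first was 204 bp wide and 569 kb from a knockout-only peak. The second was 189 bp wide and 161 kb from a region called in the wild type and the knockout. Isolation of the leading members was not uniform. The fifth, chr8:47937023-47937259 with a score of 114, lay 61.9 kb from a knockout-only peak, and the ninth, chr5:33694622-33694879 with a score of 110, lay 20.03 kb from one.

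A score of 112 was shared by chr15:32496348-32496542, chr6:126388502-126388669 and chr5:146962054-146962297. The chromosome 15 region was 195 bp wide and had no wild-type or knockout peak within 1476 kb, although another knock-in peak lay 56.2 kb away. The chromosome 6 region was the narrowest member, at 168 bp, and its nearest knockout peak was 502 kb away. The region on chromosome 5 was 244 bp wide and 505 kb from a knockout-only peak. The last of the 10, chr3:37377203-37377409, had a score of 100, was 207 bp wide and lay 197 kb from a region called in both mutants. It was tied at this score with an eleventh member, chr7:117940177-117940364, which was 188 bp wide and 43502 bp from a knockout-only peak, so the choice between them was arbitrary. Of these 10 regions 7 were narrower than 250 bp, and 0 lay within 10 kb of a peak of another list. At the other end, the lowest-scoring members were chr16:57740705-57741013 at 50.1, chr16:77527335-77527657 at 50.1 and chr10:17205427-17205781 at 50.1. They were 309, 323 and 355 bp wide, each wider than 9 of the 10 highest-scoring members.

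Over all scores the members were no narrower than other knock-in peaks. Their median width was 319 bp (exact 95% interval 313 to 326, interquartile range 274 to 351), and knock-in peaks called in all 3 genotypes had the same median (312 to 329). Knock-in peaks shared with the knockout alone had a median of 300.5 bp (293 to 312). Knockout-only regions were narrower in the knockout list, at 283 bp (279 to 286), and wild-type-only regions in the wild-type list at 246.5 bp (221 to 296).

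Width fell as score rose among the members. In the lowest-scoring 20% of the knock-in list, 249 members had a median width of 331 bp (327 to 336), and 5 of them (2.01%) were narrower than 250 bp. In the middle 20%, 81 members had a median of 283 bp (268 to 304) and 28.4% were that narrow. In the fourth class, 34 members had a median of 257 bp (217 to 285), and 15 of them (44.1%) were under 250 bp. The highest-scoring 20% held 8 members with a median of 220.5 bp (168 to 378), 6 of them under 250 bp. Without this thinly filled class the median still went from 331 to 257 bp. Shared peaks also narrowed from the lowest to the fourth class. Those shared with the knockout alone went from 319 bp (307 to 329) to 281 bp (268 to 295). Those of all 3 genotypes went from 325 bp (305 to 354) to 289 bp (278 to 315). Both fourth-class intervals overlap that of the members, so narrowing up to this class was not particular to members. In the highest class the medians were 285 bp (245 to 334) for peaks shared with the knockout alone and 338.5 bp (319 to 355) for all 3 genotypes. The share under 250 bp among peaks shared with the knockout alone rose from 11.8% in the lowest class to 38.8% in the highest.

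**Figure D2:**
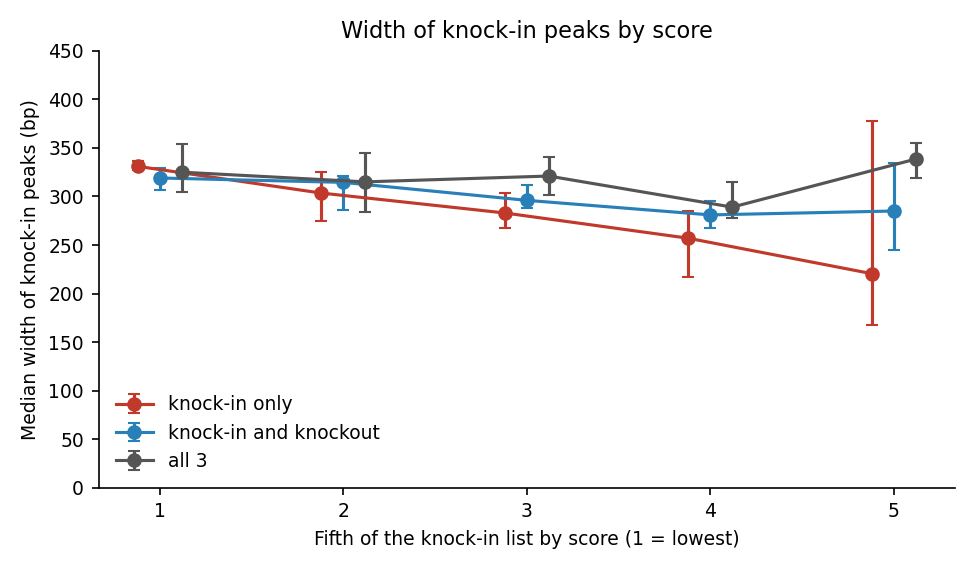
Points show the median width (bp) of knock-in peaks in each 20% of the knock-in list ordered by score, for regions called in the knock-in alone, in both mutants or in all 3 genotypes; bars are exact 95% intervals of the median. The knock-in-only median falls from 331 bp to 220.5 bp, while that of regions in all 3 genotypes stays between 289 and 338.5 bp.

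Repeated scores were frequent among the narrow members. Of the 74 members under 250 bp (14.5% of 512, 11.5 to 17.8), 63 had a score that another knock-in peak also had (85.1%). Among narrow peaks called in both mutants this was 81.9% of 177, and among narrow peaks called in all 3 genotypes 77.4% of 133. The widest members had modest scores. They were chr10:122047921-122048465 at 545 bp with a score of 57.9, chr14:72027897-72028398 at 502 bp with 69.4 and chr14:27172391-27172879 at 489 bp with 58.7. Next in width, chr5:34418566-34419047 at 482 bp had the highest score of these 5, at 92.8. The last, chr11:23582620-23583094, was 475 bp wide with a score of 59.5. No member was as wide as the widest autosomal knock-in peak shared with the other lists, at 1081 bp.

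Few regions lay near the boundary of the choice. Only 3 members lay within 500 bp of a peak of another list, and 5 within 1 kb. The closest, chr9:89955234-89955489 with a score of 85.3, was 98 bp from a knockout-only peak whose own score was 106. The next were chr14:70456794-70457074 at 175 bp, chr16:24860603-24860946 at 386 bp, chr18:80807884-80808213 at 561 bp and chr16:36934868-36935133 at 738 bp, each from a knockout-only peak. On the other side of the boundary, all 1551 shared knock-in peaks overlapped another list's peak by more than 100 bp, with a median overlap of 265 bp, or 92.0% of the knock-in peak. The smallest overlaps were 109 bp at chr10:66946894-66947256, 129 bp at chr10:37041162-37041418 and 134 bp at chr1:163929028-163929213. They were followed by 138 bp at chr18:53304514-53304887 and 141 bp at chr4:73926221-73926576. All 5 of these were shared with the knockout and not the wild type.

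Members were mostly far from any peak of the other lists. The median distance from the edge of a member to the nearest wild-type or knockout peak was 162 kb (135 to 191), with an interquartile range of 39.9 to 512 kb. Taken list by list, the nearest knockout peak was a median of 166 kb away (139 to 194) and the nearest wild-type peak 614 kb (517 to 804), from lists of very different length. Within 10 kb of a peak of another list lay 48 members (9.38%, 6.99 to 12.2), and within 50 kb 28.3%. Knock-in peaks shared with the knockout alone were closer to the nearest wild-type or knockout peak that did not overlap them, with a median of 67.9 kb (55.9 to 80.2) and 13.9% within 10 kb. For knock-in peaks called in all 3 genotypes these values were 58.0 kb (50.4 to 67.3) and 15.99%. Shared peaks overlap a peak of another list by definition, which members lack by the rule. The interval of the share within 10 kb for peaks shared with the knockout alone, 11.5 to 16.7, overlaps that of the members. In the higher-scoring 50% of the list these shares were 8.33% (3.12 to 17.3) for members and 13.9% (10.3 to 18.2) for peaks shared with the knockout alone. In the lower-scoring 50% they were 9.55% (6.97 to 12.7) and 14.0% (10.7 to 17.7).

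Moving every member by a fixed offset along its chromosome gave a reference for these distances. With offsets of 1, 2 and 5 Mb in either direction, the median distance was 279 to 353 kb, against 162 kb in place. The share within 10 kb of another list's peak was 2.34% to 4.30% over the 6 offsets, against 9.38% in place, and the share within 50 kb was 10.4% to 17.6%, against 28.3%. With offsets of only 100 kb, the median distance was 172 and 180 kb, and the share within 10 kb was 5.47% for both. Members were therefore nearer to peaks of the other lists than their moved positions by the shares within 10 kb and 50 kb for every offset. By the median they were nearer than positions moved by 1 Mb or more, while both medians for offsets of 100 kb lay inside the interval of the median in place. Moved positions were placed without regard to sequence, and no p-value is given.

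**Figure D3:**
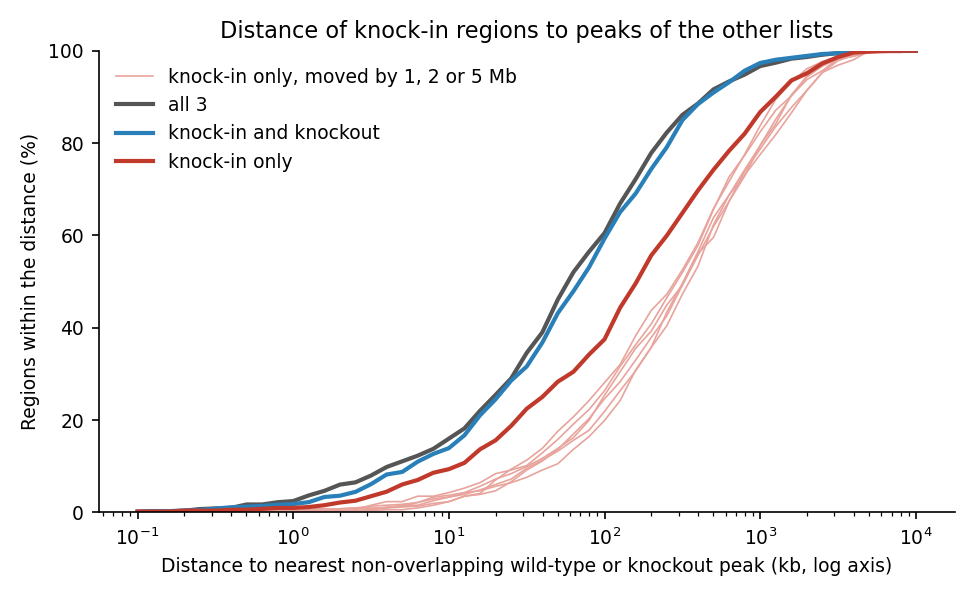
Lines show the percentage of knock-in regions whose nearest non-overlapping wild-type or knockout peak lies within the distance on the x axis (kb, log axis), for regions called in the knock-in alone, in both mutants and in all 3 genotypes; thin lines are the knock-in-only regions moved by 1, 2 or 5 Mb in either direction. At 10 kb the knock-in-only line stands at 9.38%, above the moved positions (2.34% to 4.30%) and below the shared regions (13.9% and 15.99%).

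Neighbouring peaks of other lists were of every class. The nearest peak was a knockout-only peak for 271 members (52.9%, 48.5 to 57.3), a peak of both mutants for 98 (19.1%, 15.8 to 22.8) and a peak called in all 3 genotypes for 97 (18.9%, 15.6 to 22.6). Among all regions with a wild-type or knockout peak, these classes made up 56.0%, 17.2% and 19.5%. Each of these values lies inside the corresponding interval for the members. A region of the wild type and the knockout was nearest for 40 members (7.81%, 5.64 to 10.5), and such regions were 5.57% of the total, just below that interval. Of the 48 members within 10 kb of another peak, 28 had a knockout-only neighbour, 8 a neighbour in both mutants and 7 a neighbour in all 3 genotypes.

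Distances to a common set of targets were also compared, because the other lists differ in length. To the nearest of the 812 regions called in all 3 genotypes, members had a median distance of 859 kb (714 to 984). Regions of both mutants were at 454 kb (381 to 540), knockout-only regions at 586 kb (541 to 645) and wild-type-only regions at 323 kb (189 to 963). The regions in all 3 genotypes lay 627 kb (513 to 746) from one another. Intervals for the members did not overlap those for the regions of both mutants or of the knockout alone, and did overlap those for the wild-type-only regions and for the regions in all 3 genotypes. Members moved by 1, 2 or 5 Mb had medians of 963 to 1381 kb.

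Members were also set beside shared peaks of similar rank. In the lower-scoring 50% of the knock-in list, 440 members had a median of 877 kb (688 to 1024) to a region in all 3 genotypes, and 401 peaks of both mutants had 523 kb (410 to 693), intervals that overlap slightly. In the higher-scoring 50%, 72 members had 760 kb (403 to 1078) and 317 peaks of both mutants 381 kb (280 to 523), which overlap more widely.

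Some members lay where the knockout list was empty. For 68 of the 512 (13.3%, 10.5 to 16.5), no knockout peak was called within 1 Mb on either side. The same 13.3% lay more than 1 Mb from any wild-type or knockout peak. Of the members' positions moved by 1, 2 or 5 Mb, 16.2% to 22.5% did. The share in place was below all of these, but the lowest of them lies inside its interval. With offsets of 100 kb the share was 13.1% and 15.4%, on either side of the value in place. The share of regions with no other knockout peak that near was 2.65% (1.60 to 4.10) for regions of both mutants, 3.44% (2.30 to 4.94) for those of all 3 genotypes and 3.17% (2.50 to 3.97) for knockout-only regions. Each of these classes holds a knockout peak by definition, which members lack by the rule. Wild-type-only regions, which also lack one, were not counted. Within the lower-scoring 50% of each list the shares were 14.8% (11.6 to 18.4) for members, 2.74% (1.38 to 4.86) for peaks of both mutants and 3.46% (2.63 to 4.46) for knockout-only peaks. In the higher-scoring 50% of the knock-in list, 3 of 72 members had no such neighbour (4.17%, 0.868 to 11.7), compared with 2.52% (1.10 to 4.91) of the peaks of both mutants. The intervals of members and of peaks of both mutants were thus apart in the lower-scoring 50% and overlapped in the higher-scoring 50%. Fewer members were counted in the latter, and neither comparison matched the peaks for rank.

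**Figure D4:**
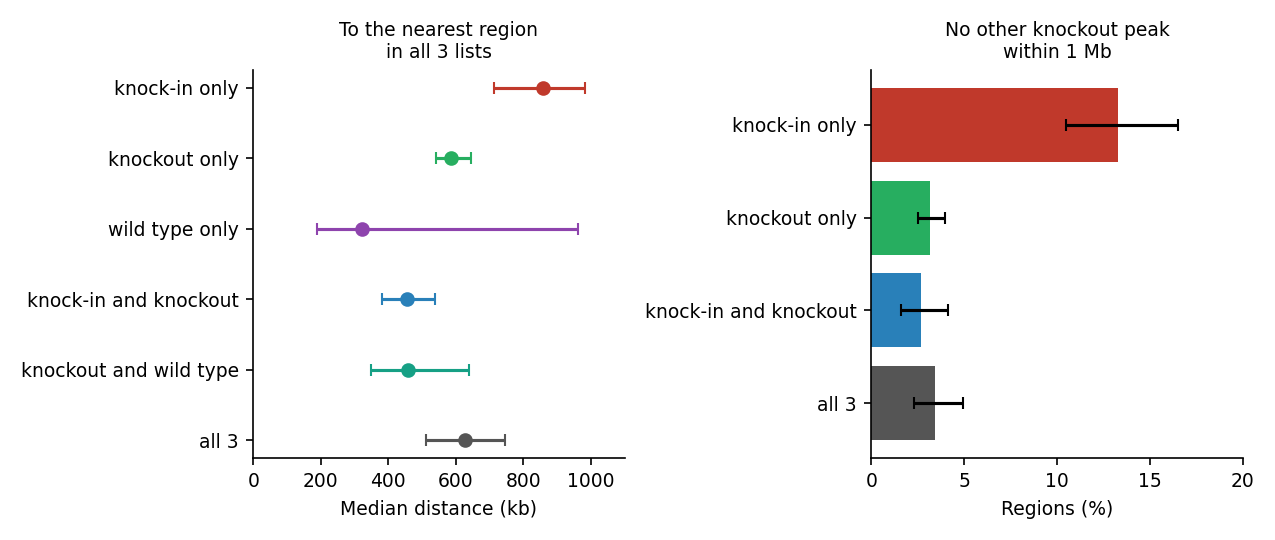
The left panel gives the median distance (kb) from regions of each class to the nearest other region called in all 3 genotypes, and the right panel the percentage of regions with no other knockout peak within 1 Mb; bars are exact 95% intervals. Among the classes shown, knock-in-only regions stand highest in both, at 859 kb and 13.3%. The other classes of the right panel all hold a knockout peak by definition, and wild-type-only regions were not counted there.

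The 68 isolated members had a median score of 55.0, a highest score of 112 and a median width of 326 bp, and they were spread over 18 chromosomes, with at most 8 on a single one. For 25 of them every peak of the other lists was more than 2 Mb away. The farthest were chr1:114933801-114934165, with a score of 50.5 and no other-list peak within 5411 kb, and chr8:19021830-19022086, with a score of 59.2 and none within 4024 kb. They were followed by chr4:28481054-28481384 at 3855 kb, chr1:116583391-116583726 at 3761 kb and chr16:72117247-72117598 at 3760 kb, with scores of 52.1, 52.8 and 51.5. The pair of regions on chromosome 1 were the nearest knock-in peaks to each other, 1649 kb apart. Members within 10 kb of another list's peak had a median score of 59.5 (57.4 to 64.6), against 55.0 (53.5 to 57.4) for those more than 1 Mb from one, and these intervals meet end to end.

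Members seldom lay close to one another. Only 4 of them, in 2 pairs, were within 10 kb of another member. On chromosome 13, chr13:37436866-37437253 with a score of 68.5 and chr13:37440006-37440405 with 59.5 were 2752 bp apart. A region of all 3 genotypes lay 103 kb from the second. On chromosome 5, chr5:20436304-20436494 with a score of 72.9 and chr5:20438416-20438737 with 65.2 were 1921 bp apart and 198 kb from a knockout-only peak. With a limit of 50 kb there were 7 pairs. The median distance to any other knock-in peak was 291 kb (238 to 331) for members, 174 kb (157 to 199) for peaks of both mutants and 157 kb (136 to 169) for peaks of all 3 genotypes. Looser concentrations were picked out after their values were seen. In a 5 Mb window of chromosome 1 whose members spanned 48313757 to 52487829, 6 of 9 knock-in peaks were members. In a window of the same size on chromosome 19, whose members spanned 28125071 to 32341300, 6 of 11 were.

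Every autosome carried members, from 13 on chromosome 18 to 43 on chromosome 1. As a share of the knock-in peaks of each chromosome they ran from 17.2% on chromosome 7 (22 of 128, 11.1 to 24.9) to 33.9% on chromosome 3 (39 of 115, 25.3 to 43.3). Chromosome 3 was the only one of 19 whose interval left out the share over all autosomes, 24.8%, and 19 unadjusted intervals were looked at. It also carried the highest-scoring member. The median member score by chromosome lay between 55.5 on chromosome 3 and 61.8 on chromosome 15. Which genes the regions lie in, and which sequence they hold, was not analysed here, since the coordinates are of mm9 and the gene and promoter tables at hand are of GRCm38.

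**Figure D5:**
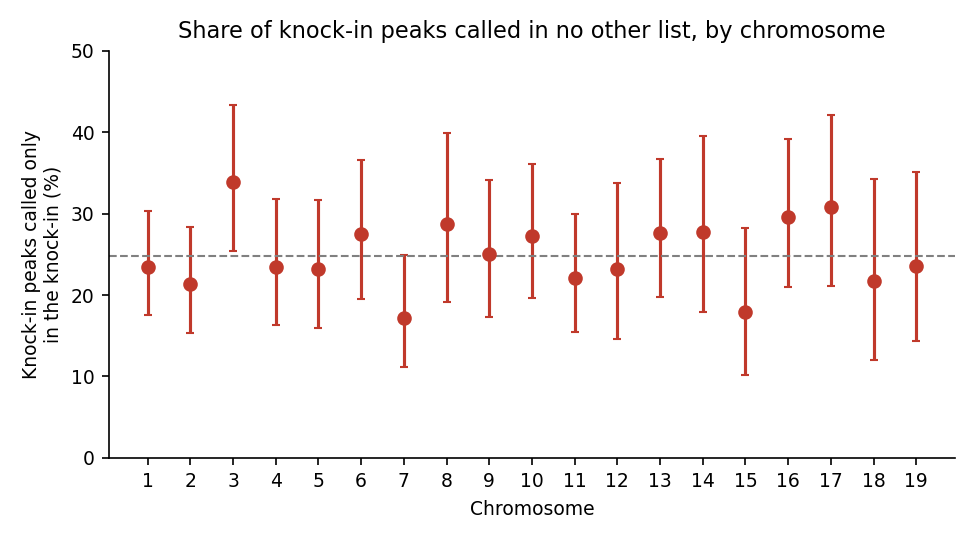
Points show the percentage of knock-in peaks on each autosome that were called in no other list, with exact 95% intervals; the dashed line is the share over all autosomes, 24.8%. Chromosome 3 stands highest at 33.9% and chromosome 7 lowest at 17.2%.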

How the data were processed

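The data were PU.1 ChIP-seq peak lists of B cells from 3 genotypes, with 1 library each; the input sample was not analysed here. Trim Galore, Bowtie and MACS and the build mm9 are named in the submitters' processing notes; what is not given in the sources used here are versions, settings and the calling control. The authors deposited chromosome, start, end, name and a score for each peak. The score has no stated definition, so it was used only to rank and describe peaks within a list. Coordinates are counted from 1 on mm9. Overlapping peaks were joined across lists on chromosomes 1 to 19. Percentiles, widths, edge-to-edge distances and exact binomial 95% intervals (Clopper-Pearson for shares, order statistics for medians) were computed with Python 3.11.15, numpy 2.4.6, pandas 2.3.3 and scipy 1.17.1, and figures with matplotlib 3.10.9. Positions moved past a chromosome's last called base re-entered at its start. The functions were tested on simulated data. No test between genotypes was made. Regions named were the 10 highest-scoring, 5 widest, 5 nearest to and 5 farthest from another list's peak, those in groups up to 10 kb, the 3 lowest-scoring, and the 5 shared regions with the least overlap. The members and the quantities described were chosen with earlier results of these data known. Alternatives changed the overlap, the lists, the chromosomes and the distance measure.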

Additional observations from a re-analysis of the deposited data

How the results depend on the processing

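The count of knock-in-only regions was 509 to 557 when overlap was made looser or stricter, X and Y were included or the knockout list alone was used. A reciprocal overlap of 50% left all 512 members and added 45. Restricting the knock-in list to its higher-scoring 50% left 72 regions, with a median width of 257 bp. Their median percentile was 63.1, which that restriction holds above 50. Holding each list to 1114 peaks gave 307 regions (percentile 62.6, 262 bp, 4.56% within 10 kb). Of these 91 were original members, because higher-scoring knock-in peaks lost their counterparts in the shortened lists. Using the wild-type list alone gave 1230 regions (percentile 34.8, 312 bp, 4.15% within 10 kb of a wild-type peak). The share within 10 kb was 16.7% with the reciprocal rule, under which added regions may touch another peak. It was 0.977% at a limit of 1 kb, 6.05% at 5 kb and 28.3% at 50 kb. Measuring between centres gave 9.38% again. The added settings, chosen after seeing the data, kept only members of the lower-scoring 50% of the list and gave a median width of 325.5 bp and a share within 10 kb of 9.55%. No paired analysis was possible because there was 1 library per genotype, and no replicate could be left out. Unknown read depth limits what an absent peak shows.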

Other observations

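The sex chromosomes were left out of the regions described. Chromosome X held 11 further regions called in the knock-in alone, of 27 knock-in peaks, and chromosome Y 3 of 4, which brings the number over all chromosomes to 526 of 2094 knock-in peaks.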
